A study of Homo sapiens with 6 samples.

Results

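The genes of cholesterol and fatty acid synthesis were examined in OVCAR3, an established line of human ovarian cancer cells, after knockdown of NUF2. The group holds 32 of the 19973 genes in the deposited expression table, namely the rows whose gene symbol equals 1 of 32 listed names, and all 32 were found. NUF2 is a subunit of the kinetochore complex that binds spindle microtubules. The control group (shNC, 3 libraries) had the genotype label WT and received a negative control hairpin, and the knockdown group (shNUF2, 3 libraries) had the label NUF2 knockdown and received a hairpin against NUF2. Both groups were OVCAR3 cells selected with puromycin as stable lines, so the vector and the selection were common to both. The hairpins were expressed from a U6 promoter on a plasmid that carries puromycin resistance, and 1 hairpin was used for NUF2. Whether a line descends from 1 clone, and whether the 3 libraries of a group came from separate cultures, is not stated, so the p-values measure the spread between these libraries only, which may be technical.

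Cholesterol is built from acetyl-CoA. The mevalonate enzymes make isoprene units and farnesyl diphosphate, squalene is then formed and closed into lanosterol, and a series of oxidations, demethylations and reductions turns lanosterol into cholesterol. Fatty acid synthesis starts from the same acetyl-CoA, and its product is elongated and desaturated. Most of these genes are targets of the sterol regulatory element-binding proteins (SREBPs), membrane-bound transcription factors that SCAP carries to the Golgi for cleavage when sterols are low and that the INSIG proteins hold back in the endoplasmic reticulum when sterols are high. SREBP-1 isoforms are best known for the fatty acid branch and SREBP-2 for the sterol branch, and many tumor cells, carcinomas included, make fatty acids themselves at a high rate.

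NUF2 transcript was lower in each shNUF2 library, at 20.8, 22.3 and 25.5 CPM (read counts scaled to a common library size, with TMM factors for composition) against 63.5, 68.6 and 63.5 CPM in the shNC libraries (log2 fold change -1.51, SE 0.08, adjusted p = 2.17e-15, edgeR). The libraries held 13057534 to 16995452 counted reads. Of 8 markers of ovarian carcinoma epithelium, 7 passed the filter on low counts and their summed level was 1520.0 to 1624 CPM with shNC and 1663 to 1773 CPM with shNUF2, while WT1 had at most 10 reads in any library. Within that sum 4 markers were higher with shNUF2, KRT8 the most (log2 fold change 1.04), and 3 were lower, among them MSLN and MUC16 (both -0.75). Markers of fat and liver cells, tissues in which lipid synthesis is high, were at or near 0, with all 6 at no more than 10 reads and ADIPOQ, ALB and TTR at 0 in every library. The 6 fibroblast markers summed to 84.0 to 90.6 CPM with shNC and 69.0 to 76.3 CPM with shNUF2, with COL1A2 and LUM at no more than 10 reads, and their part in the results was not tested. COL1A1 made up most of that sum and was lower (81.7 ± 3.26 and 62.4 ± 3.06 CPM), whereas DCN was higher (3.66 ± 1.05 and 8.48 ± 1.02 CPM; SD, n = 3), with edgeR adjusted p of 1.23e-06 and 7e-06. Leukocyte markers (6 listed, 2 tested, CD3E and LYZ at no more than 10 reads) summed to 1.83 to 2.94 CPM with shNC and 4.9 to 7.46 CPM with shNUF2. Endothelial markers (5 listed, 3 tested, VWF and KDR at no more than 10 reads) summed to 2.13 to 3.45 and 4.82 to 6.46 CPM. The part of these low levels in the results was not tested either.

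The promoters of 6 members are shown because the SREBPs, with their partner factors, act through short elements near the start of these genes. The set holds both SREBP genes, members that rose with shNUF2 (INSIG1, MVD and LSS) and one of the genes that fell (FADS1). Each sequence is the 250 bases before the annotated start (RefSeq, GRCh38.p14), 5′ to 3′ on the strand of the gene. Capitals mark TCACNCCAC (a sterol regulatory element), CCAAT (the box bound by NF-Y) and CACGTG (an E-box) on either strand, so that a CCAAT box on the other strand reads ATTGG.

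SREBF2, chr22:41832855-41833104, plus strand: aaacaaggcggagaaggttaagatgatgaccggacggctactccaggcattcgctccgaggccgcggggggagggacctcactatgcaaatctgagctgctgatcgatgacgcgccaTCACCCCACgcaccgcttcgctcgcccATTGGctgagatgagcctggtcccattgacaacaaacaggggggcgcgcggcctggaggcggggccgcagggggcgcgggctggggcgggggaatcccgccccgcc
SREBF1, chr17:17836987-17837236, minus strand: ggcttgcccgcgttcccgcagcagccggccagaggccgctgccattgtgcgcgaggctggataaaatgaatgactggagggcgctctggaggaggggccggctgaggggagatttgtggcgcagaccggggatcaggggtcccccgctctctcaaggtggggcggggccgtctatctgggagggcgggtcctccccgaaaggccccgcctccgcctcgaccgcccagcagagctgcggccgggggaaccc
INSIG1, chr7:155297628-155297877, plus strand: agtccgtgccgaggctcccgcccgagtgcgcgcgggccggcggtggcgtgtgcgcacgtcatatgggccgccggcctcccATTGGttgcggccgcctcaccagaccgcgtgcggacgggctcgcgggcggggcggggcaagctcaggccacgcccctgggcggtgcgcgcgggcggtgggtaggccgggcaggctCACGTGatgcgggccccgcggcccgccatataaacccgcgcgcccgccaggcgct
MVD, chr16:88663092-88663341, minus strand: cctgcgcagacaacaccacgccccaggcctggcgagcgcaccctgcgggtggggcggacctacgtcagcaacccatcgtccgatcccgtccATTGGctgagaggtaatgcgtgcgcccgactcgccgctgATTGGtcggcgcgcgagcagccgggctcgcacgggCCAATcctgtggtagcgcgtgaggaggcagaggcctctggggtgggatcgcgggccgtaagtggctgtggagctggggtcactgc
LSS, chr21:46228775-46229024, minus strand: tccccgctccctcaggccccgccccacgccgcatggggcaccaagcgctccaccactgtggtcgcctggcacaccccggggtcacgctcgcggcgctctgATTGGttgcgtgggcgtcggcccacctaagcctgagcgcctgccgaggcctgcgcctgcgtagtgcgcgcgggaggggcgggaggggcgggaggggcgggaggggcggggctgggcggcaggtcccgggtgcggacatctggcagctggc
FADS1, chr11:61817004-61817253, minus strand: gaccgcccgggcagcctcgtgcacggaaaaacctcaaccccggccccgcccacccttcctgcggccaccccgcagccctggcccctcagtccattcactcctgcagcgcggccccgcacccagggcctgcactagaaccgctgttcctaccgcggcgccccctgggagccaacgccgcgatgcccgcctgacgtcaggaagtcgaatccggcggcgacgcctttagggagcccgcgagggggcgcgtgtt

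SREBF2 encodes SREBP-2 and SREBF1 encodes SREBP-1, INSIG1 retains SCAP in the endoplasmic reticulum, MVD and LSS are enzymes of the sterol route, and FADS1 is a desaturase of polyunsaturated fatty acids. Of the 3 motifs in capitals, the SREBF2 promoter holds the letters TCACCCCAC and a CCAAT box, the MVD promoter holds 3 CCAAT boxes and the LSS promoter 1, the INSIG1 promoter holds a CCAAT box and an E-box, and the SREBF1 and FADS1 windows hold none, while GC boxes (GGGCGG), left in lower case, are present in all 6 windows. At least 1 such window was found for 28 members (39 windows in all), and no window was used for ACAT2, FASN, FDFT1 and SQLE. TCACNCCAC was found in 1 of 39 member windows (2.56%), against 0.883% of all 35116 RefSeq promoter windows and 0.879% of the windows of tested genes. CCAAT was found in 24 of 39 member windows (61.5%), against 32% of all windows and 32.8% of those of tested genes. By branch, CCAAT was in 9 of 11 windows of the squalene to cholesterol enzymes (81.8%), in 6 of 9 of the mevalonate enzymes (66.7%), in 6 of 12 of the fatty acid enzymes (50%) and in 3 of 7 of the regulators (42.9%). Among members not printed, CCAAT was present for some that rose (NSDHL and EBP) and some that fell (FDPS, SCD and TM7SF2). It was absent from the windows of INSIG2, which rose, and of PMVK, which fell. The E-box was in 4 member windows (10.3%, against 6.34% of all windows and 8.11% of those of tested genes) and the GC box GGGCGG in 35 (89.7%, against 42.6% and 62.8%). These matches are descriptions of letters in a window, windows of 1 gene can overlap, and the motifs were searched on both strands with no test of the shares.

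All 32 members passed the filter on low counts. With shNUF2, 11 members were higher and 13 lower at a Benjamini-Hochberg adjusted p under 0.05 (edgeR quasi-likelihood test across all 12874 genes tested), and 8 did not pass. These shares, 34.4% higher and 40.6% lower, stand beside 33.9% higher and 33.8% lower among all genes tested, so the count of called members was near the background of this comparison. Under the cutoffs of the study, a fold change beyond 1 or -1 (read here as log2, a scale the study does not name) with an unadjusted p under 0.05, 3 members were higher (INSIG1, INSIG2 and LSS; 9.38%, against 9.41% of all genes) and 2 were lower (TM7SF2 and FADS1; 6.25%, against 4.16%). With TREAT, a test of whether a change exceeds that threshold, 2 members were higher (INSIG1 and INSIG2) and 0 lower after adjustment, and 3 higher and 1 lower (FADS1) at an unadjusted p under 0.05. In 25 of the 32 members (78.1%) the shNUF2 values all lay on 1 side of the shNC values, which was true of 70.6% of all genes. The median log2 fold change of the members was -0.02, and that of all genes was -0.01. In bulk RNA, a change in the share of cells that express a gene and a change in RNA per cell cannot be told apart.

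The branches are given beside the shares over all genes tested, 33.9% higher and 33.8% lower. The fatty acid branch had 0 members higher, 6 lower (75%) and 2 not called, with a median log2 fold change of -0.36. Its count of higher members was 0 also at an unadjusted edgeR p under 0.05, with DESeq2 and with limma. The squalene to cholesterol enzymes had 5 higher (45.5%), 2 lower (18.2%) and 4 not called (median 0.15), and the mevalonate enzymes 3 higher (42.9%), 2 lower (28.6%) and 2 not called (median 0.23). Of the 6 genes for regulators and the sterol carrier, 3 were higher and 3 lower (50% each, median 0.24). No test compared the branches with each other.

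**Figure D1:**
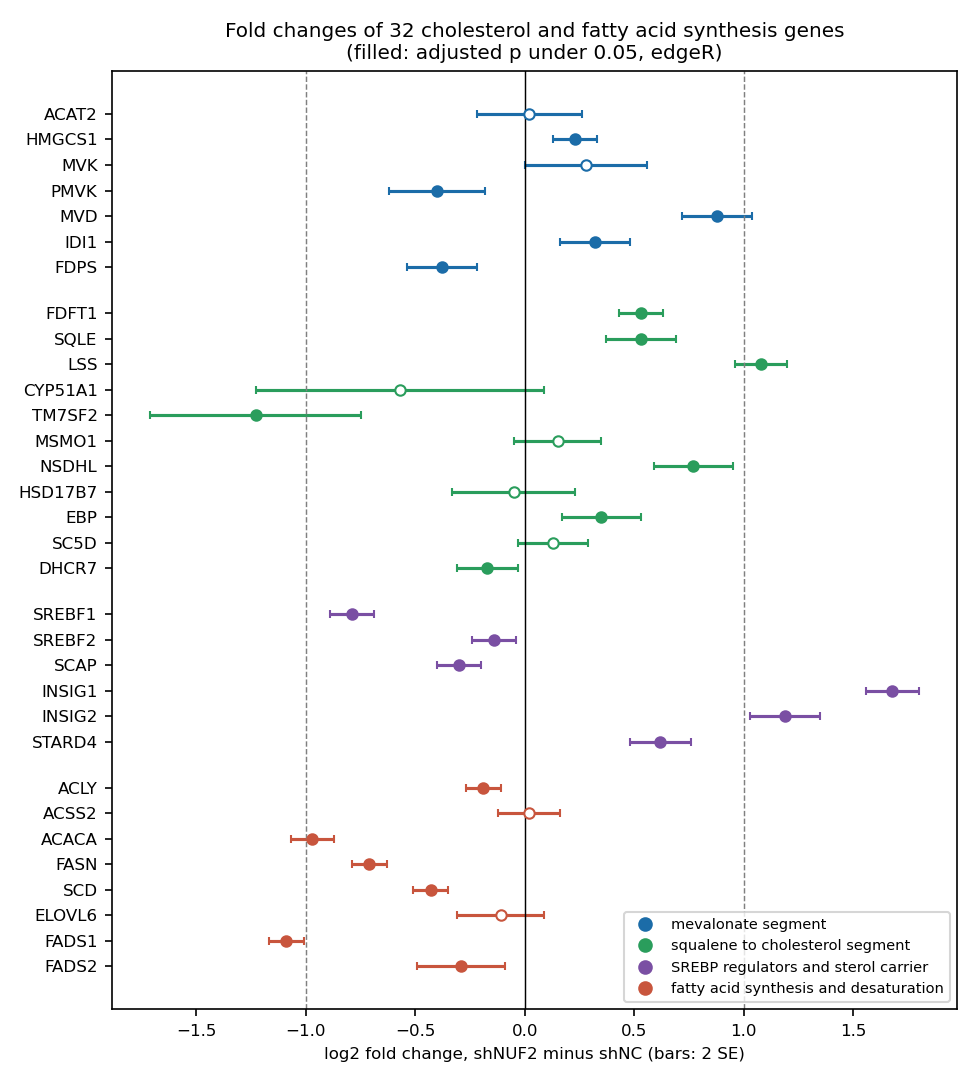
Log2 fold change (shNUF2 minus shNC, x axis) of the 32 genes (y axis) by branch, where points are edgeR estimates, bars are 2 standard errors, filled points passed an adjusted p of 0.05 and dashed lines mark log2 fold changes of -1 and 1. INSIG1 lies farthest to the right (1.68) and TM7SF2 farthest to the left (-1.23), and no fatty acid gene is filled to the right of 0.

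The regulators of the pathway ranged from -0.79 to 1.68 in log2 fold change, against -1.23 to 1.08 for the squalene to cholesterol enzymes. INSIG1, whose protein anchors SCAP and is itself a well-known SREBP target, was at 52.5, 46.6 and 43.5 CPM with shNC and at 161, 146 and 149.6 CPM with shNUF2. The groups did not overlap, and the level was 3.2-fold higher with shNUF2 (log2 fold change 1.68, SE 0.06, adjusted p = 1.15e-18). INSIG2, the second retention protein, was at 105, 79.3 and 73.3 CPM with shNC and at 208, 177 and 199 CPM with shNUF2. It was 2.27-fold higher without overlap (log2 fold change 1.19, SE 0.08, adjusted p = 7.07e-13), although the first shNC library stood above the other two. STARD4, a soluble carrier that moves cholesterol between membranes, was at 37.6, 34.4 and 33.0 CPM with shNC and at 56.5, 52.6 and 52.3 CPM with shNUF2, a 1.53-fold increase (log2 fold change 0.62, SE 0.07, adjusted p = 1.92e-08).

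The transcription factors and their escort moved the other way. SREBF1 was at 252, 231 and 243 CPM with shNC and at 133, 145 and 141 CPM with shNUF2. Every shNUF2 library was below every shNC library, at 0.577 times the control level (log2 fold change -0.79, SE 0.05, adjusted p = 5.34e-14). SREBF2 was at 172, 167 and 159.6 CPM with shNC and at 153, 148 and 151 CPM with shNUF2. That difference was small, 0.905 times the control level, and also without overlap (log2 fold change -0.14, SE 0.05, adjusted p = 0.00764). SCAP was at 123, 132 and 124 CPM with shNC and at 109, 95.9 and 102 CPM with shNUF2 (log2 fold change -0.30, SE 0.05, adjusted p = 1.18e-05). The INSIG genes were thus higher while SREBF1, SREBF2 and SCAP were lower at the transcript level, and no protein or cleavage was measured.

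In the mevalonate segment, which leads from acetyl-CoA to farnesyl diphosphate, MVD carried the largest difference. MVD, which decarboxylates mevalonate diphosphate to isopentenyl diphosphate, was at 24.1, 20.8 and 23.7 CPM with shNC and at 41.6, 42.2 and 42.8 CPM with shNUF2. The shNUF2 values were tight and all above the controls (1.85-fold, log2 fold change 0.88, SE 0.08, adjusted p = 3.21e-10). HMGCS1, which condenses acetoacetyl-CoA with acetyl-CoA, rose from 148 ± 1.29 to 173 ± 7.27 CPM (SD, n = 3 in each group; log2 fold change 0.23, adjusted p = 9.43e-05 by edgeR). IDI1, the isomerase of the isoprene units, rose from 28.4 ± 1.73 to 35.6 ± 2.23 CPM (log2 fold change 0.32, adjusted p = 0.00115).

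A pair of mevalonate genes fell. PMVK, which adds the second phosphate to mevalonate, was at 24.1, 25.0 and 25.3 CPM with shNC and at 15.8, 18.9 and 21.8 CPM with shNUF2. Its shNUF2 values were spread out, yet each was below the controls (log2 fold change -0.40, SE 0.11, adjusted p = 0.00173). FDPS, the farnesyl diphosphate synthase, was at 36.6, 37.2 and 40.5 CPM with shNC and at 30.6, 31.5 and 25.9 CPM with shNUF2 (log2 fold change -0.38, SE 0.08, adjusted p = 0.000289). FDPS has 8 pseudogenes named after it in GENCODE 29, and how reads were divided between them is not given in the sources used here. ACAT2, the cytosolic thiolase at the start of the route, and MVK, the first mevalonate kinase, were not called. The estimates were 0.02 for ACAT2, with an interval of 2 standard errors from -0.22 to 0.26 (adjusted p = 0.897), and 0.28 for MVK (SE 0.14, adjusted p = 0.0842). For ACAT2 the sign changed with the scaling, so it has no direction here.

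From farnesyl diphosphate to lanosterol all 3 enzymes were higher with shNUF2. FDFT1, the squalene synthase, was at 84.7, 88.6 and 87.4 CPM with shNC and at 131, 125 and 121 CPM with shNUF2 (1.44-fold, log2 fold change 0.53, SE 0.05, adjusted p = 4.23e-10). SQLE, which adds the epoxide to squalene, was at 26.0, 26.1 and 26.0 CPM with shNC and at 38.1, 39.2 and 35.4 CPM with shNUF2 (1.44-fold, log2 fold change 0.53, SE 0.08, adjusted p = 1.77e-06). The controls of both genes were almost level, and the groups were well apart. LSS, which closes the epoxide into lanosterol, was at 47.3, 45.2 and 47.4 CPM with shNC and at 106, 92.2 and 98.5 CPM with shNUF2. At 2.12-fold it was the most changed enzyme among the members with higher levels (log2 fold change 1.08, SE 0.06, adjusted p = 1.03e-14).

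The later sterol enzymes had no common direction. NSDHL, a dehydrogenase in the removal of the methyl groups of lanosterol, was at 23.1, 23.1 and 22.3 CPM with shNC and at 43.3, 34.6 and 38.8 CPM with shNUF2, without overlap (1.7-fold, log2 fold change 0.77, SE 0.09, adjusted p = 1.86e-08). EBP, the sterol isomerase, rose from 23.2 ± 2.51 to 29.5 ± 1.56 CPM (SD, n = 3; log2 fold change 0.35, adjusted p = 0.00198 by edgeR). TM7SF2, a sterol reductase, was at 6.19, 5.94 and 4.42 CPM with shNC and at 3.19, 1.85 and 1.99 CPM with shNUF2. These levels rest on 76 to 95 reads in the control libraries and 24 to 43 reads in the knockdown libraries, and the groups did not overlap (0.425 times the control, log2 fold change -1.23, SE 0.24, adjusted p = 7.85e-05). TM7SF2 overlaps VPS51 on the same strand, where reads cannot be assigned with certainty. LBR, a lamin receptor with the same reductase activity, was also lower, at 169 ± 5.05 CPM with shNC and 122 ± 5.0 CPM with shNUF2 (log2 fold change -0.48, adjusted p = 1.56e-09 by edgeR).

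DHCR7, the reductase of the last step in one arm of the route, was lower by a small margin. Its levels were 51.4, 52.6 and 49.9 CPM with shNC and 45.3, 48.9 and 43.0 CPM with shNUF2. The call (log2 fold change -0.17, SE 0.07, adjusted p = 0.0293) was lost with DESeq2, with a stricter filter on low counts and on leaving out any of 4 libraries (shNC replicate 1 or 2, shNUF2 replicate 1 or 3), with adjusted p up to 0.148 over all alternatives. MSMO1, which oxidizes the methyl groups (0.15), HSD17B7, a ketosteroid reductase (-0.05), and SC5D, the sterol desaturase (0.13), were not called, with adjusted p of 0.174, 0.743 and 0.141. SC5D was above the controls in each shNUF2 library even so, at 35, 33.4 and 34.0 CPM against 31.6, 30.9 and 31.2 CPM. CYP51A1, the lanosterol demethylase, had only 17 to 46 reads in any library, and its interval of 2 standard errors ran from -1.24 to 0.09 on the log2 scale (adjusted p = 0.129). CYP51A1 overlaps other coding genes on its own strand (AC000120.2 and AC000120.3) and has 3 pseudogenes named after it, so its count and level are uncertain.

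**Figure D2:**
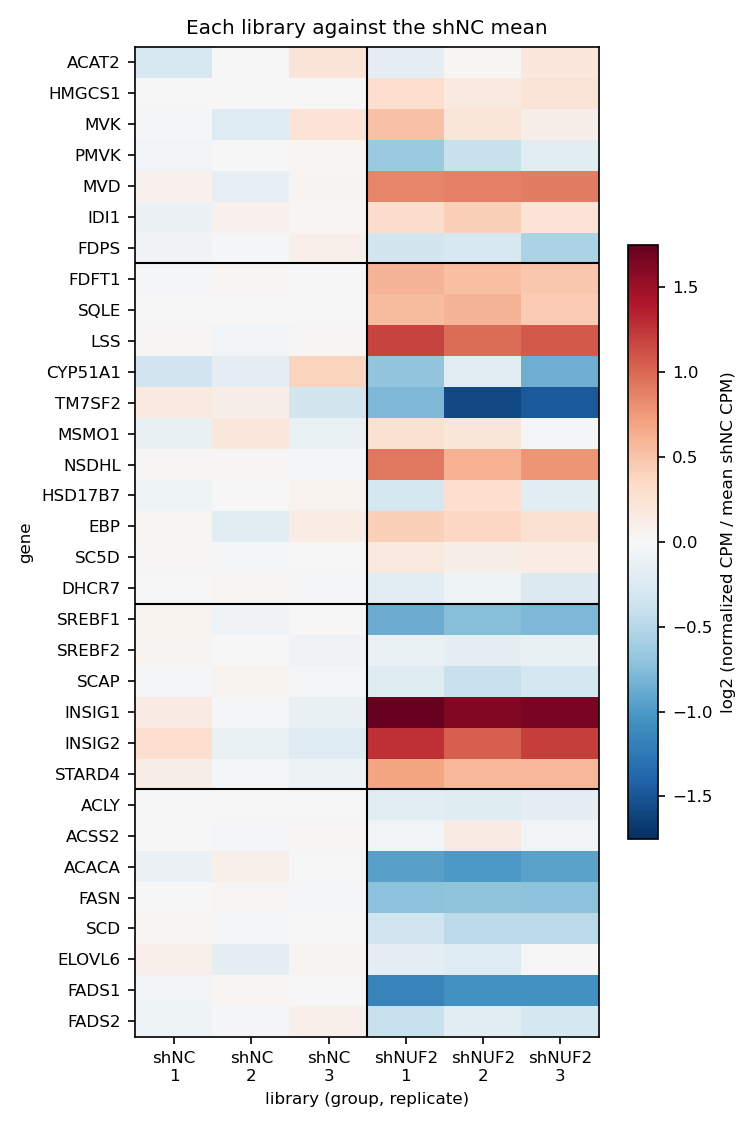
Log2 ratio of the normalized CPM of each of the 6 libraries (columns) to the mean of the shNC libraries, for each of the 32 genes (rows, black lines between branches), red above and blue below that mean. The INSIG1, INSIG2, LSS and MVD rows are red and the ACACA, FASN, FADS1 and SREBF1 rows blue in all 3 shNUF2 libraries.

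In the fatty acid branch the called genes were lower with shNUF2 from the supply of acetyl-CoA to the desaturases. ACLY, which splits cytosolic citrate to acetyl-CoA, fell slightly, from 244 ± 2.22 to 213 ± 3.04 CPM (SD, n = 3; log2 fold change -0.19, adjusted p = 0.000236 by edgeR). ACACA, the carboxylase that makes malonyl-CoA and sets the rate of the pathway, was at 182, 207 and 196 CPM with shNC and at 100.5, 96.9 and 102 CPM with shNUF2. The knockdown libraries were close to each other and at 0.512 times the control level (log2 fold change -0.97, SE 0.05, adjusted p = 3.5e-15). FASN, the fatty acid synthase, was at 573, 586 and 565 CPM with shNC and at 351, 352 and 349.9 CPM with shNUF2. It was at 0.61 times the control level with little spread in either group (log2 fold change -0.71, SE 0.04, adjusted p = 1.61e-14).

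The desaturases were lower as well. SCD, which makes monounsaturated fatty acids, was at 723, 693 and 699 CPM with shNC and at 555, 511 and 507 CPM with shNUF2 (log2 fold change -0.43, SE 0.04, adjusted p = 1.81e-09). FADS1 was at 373, 395 and 388 CPM with shNC and at 172, 185 and 184 CPM with shNUF2. FADS1 was the most reduced of the fatty acid genes, at 0.468 times the control level with no overlap (log2 fold change -1.09, SE 0.04, adjusted p = 1.39e-17). Its interval of 2 standard errors, -1.18 to -1.01, lay just beyond the threshold of -1. FADS2, the desaturase that acts before FADS1 on polyunsaturated fatty acids, was at 23.8, 24.3 and 26.7 CPM with shNC and at 19.1, 21.9 and 20.2 CPM with shNUF2 (log2 fold change -0.29, SE 0.10, adjusted p = 0.00817). FADS1 and FADS2 overlap on opposite strands of chromosome 11 (61799627 to 61829318 on the minus strand and 61792980 to 61867354 on the plus strand, GRCh38.p13), and the strand setting of the counting is not given in the sources used here, so reads in the overlap are uncertain. FADS2 also overlaps the coding gene FEN1 on its own strand and has 1 pseudogene named after it.

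ACSS2, which makes acetyl-CoA from acetate, and ELOVL6, which elongates palmitate, were not called. ACSS2 was at 43.3, 42.4 and 43.8 CPM with shNC and at 41.7, 47.7 and 41.9 CPM with shNUF2, and its interval of 2 standard errors ran from -0.12 to 0.16 on the log2 scale (adjusted p = 0.827). ELOVL6 was at 27.4, 23.0 and 26.6 CPM with shNC and at 23.1, 22 and 25.8 CPM with shNUF2, with an interval from -0.30 to 0.08 (adjusted p = 0.298). The groups overlapped for both genes, and the sign of ACSS2 changed with the scaling.

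Levels between genes were compared as FPKM, which divides the read count by gene length and library total. With shNC, SCD had the highest level of the 32 members (136 FPKM), followed by FASN (62.4), ACLY (47.3), FADS1 (38.1) and SREBF1 (29.8), and the lowest were MVK (1.59) and CYP51A1 (0.584, with the overlaps named above). With shNUF2, SCD remained first at 98.6 FPKM, and INSIG2 (48.6 FPKM, rank 9 with shNC) and INSIG1 (41.1 FPKM, rank 14) came next, ahead of ACLY (40.4) and FASN (37.1). The means of INSIG1, ACLY and FASN lay close together with shNUF2. ACACA moved from rank 12 to rank 24, and LSS from rank 22 to rank 15. The summed FPKM of the 8 fatty acid genes was 313 ± 2.17 FPKM in the shNC libraries and 214 ± 2.14 FPKM in the shNUF2 libraries (SD, n = 3; ratio 0.684). The sum of the 11 squalene to cholesterol genes was 84.4 ± 1.02 and 109.6 ± 4.5 FPKM (ratio 1.3), that of the mevalonate genes 78.5 ± 2.95 and 78.2 ± 2.71 FPKM (ratio 0.996), and that of the regulators and STARD4 114 ± 6.91 and 152 ± 5.45 FPKM (ratio 1.33). Over all 32 members the sum was 590.0 ± 4.06 FPKM with shNC and 554 ± 7.69 FPKM with shNUF2. The sum of the regulators pools INSIG1, INSIG2 and STARD4, which rose, with SREBF1, SREBF2 and SCAP, which fell. The mevalonate sum likewise pools HMGCS1, MVD and IDI1, which rose, with PMVK and FDPS, which fell. These sums are described without a test.

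**Figure D3:**
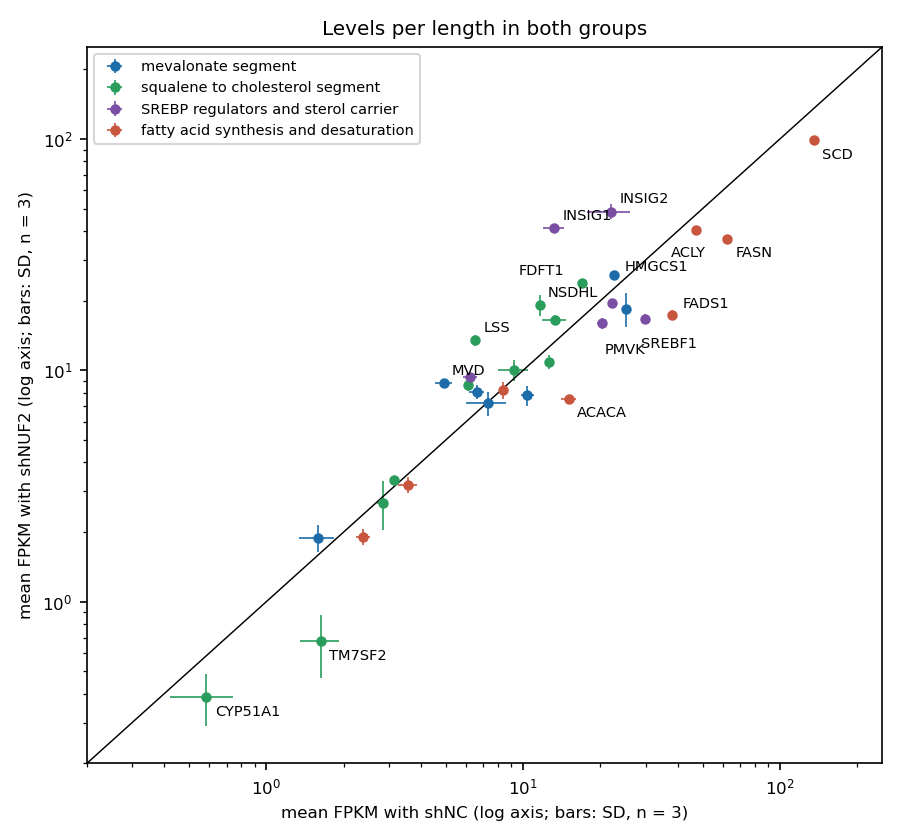
Mean FPKM with shNUF2 (y axis) against mean FPKM with shNC (x axis) on log axes for the 32 genes, colored by branch, with bars of 1 SD over 3 libraries and a line of equal level. SCD is highest in both groups (136 and 98.6 FPKM), INSIG1 and INSIG2 lie above the line, and ACACA, FASN, FADS1 and SREBF1 lie below it.

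The other genes of these pathways were read from 8 lists with 86 genes, of which 78 passed the filter, with 18 higher and 33 lower (23.1% and 42.3%, against 33.9% and 33.8% of all genes tested; median log2 fold change -0.13). Of the 8 genes for SREBP cleavage and sterol-sensing degradation, 3 were higher and 5 lower (37.5% and 62.5%). MBTPS2, the protease that frees SREBPs from the membrane, was at 129, 125 and 131 CPM with shNC and at 49.9, 49.7 and 51.2 CPM with shNUF2, far apart (log2 fold change -1.35, SE 0.05, adjusted p = 5.49e-18). MBTPS1, the protease of the preceding cut, was at 246 ± 7.0 and 170.3 ± 4.07 CPM (log2 fold change -0.53, adjusted p = 4.48e-11), and ERLIN2, which takes part in degradation at the endoplasmic reticulum, at 46.3 ± 3.16 and 25.2 ± 2.4 CPM (-0.88, adjusted p = 5.59e-10). The 3 higher genes of that list had log2 fold changes of at most 0.26, and their number fell to 1 under several alternatives, DESeq2 among them.

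Of the 7 tested genes that supply carbon or NADPH for fatty acid synthesis, or regulate it, 0 were higher and 5 lower (71.4%, against 33.8% of all genes tested), with a median of -0.70, and the count of higher genes was 0 also at an unadjusted edgeR p under 0.05, with DESeq2 and with limma. PGD, an NADPH-producing enzyme of the pentose phosphate pathway, fell from 278 ± 2.42 to 166 ± 7.34 CPM (SD, n = 3; log2 fold change -0.74, adjusted p = 5.66e-14 by edgeR). MLXIPL, a carbohydrate-responsive transcription factor of lipogenic genes, was at 10.7, 12.8 and 13.1 CPM with shNC and at 3.41, 4.08 and 4.06 CPM with shNUF2 (log2 fold change -1.66, SE 0.16, adjusted p = 9.98e-10). These lists were drawn up with results of these data known, and their counts are descriptions.

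Of 15 genes of mitochondrial fatty acid oxidation, 0 were higher and 8 lower (53.3%, against 33.8% of all genes tested; median -0.22), led by ACADM, a dehydrogenase of medium-chain acyl-CoA (log2 fold change -0.95), HADH (-0.81) and ECI1 (-0.66), with adjusted p of 6.44e-14, 1.24e-09 and 6.15e-10. The count of higher genes in that list was 1 at an unadjusted edgeR p under 0.05 and 0 with DESeq2 and with limma. It was not 0 in every alternative. Over the 15 alternative fits the lowest adjusted p was 0.0135 for ECI2 and 0.0233 for HADHB, both with positive log2 fold changes. Fatty acid elongation and activation had 5 higher and 4 lower of 14 tested (35.7% and 28.6%, against 33.9% and 33.8% of all genes tested). ACSL5, which activates long-chain fatty acids, was at 1.34, 2.0 and 1.98 CPM with shNC and at 11.6, 11.8 and 9.91 CPM with shNUF2, with no overlap (log2 fold change 2.62, SE 0.20, adjusted p = 8.71e-12), whereas HACD1 and HACD2, dehydratases of elongation, were lower (-1.15 and -0.42, adjusted p = 2.73e-08 and 5.39e-08). Glycerolipid synthesis had 3 higher and 3 lower of 9 (33.3% each), with AGPAT3, an acyltransferase, at -1.35 and the lipins LPIN3 and LPIN2 at 0.87 and 0.49.

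Sterol esterification, transport and LXR genes had 2 higher and 3 lower of 10 tested (20% and 30%, against 33.9% and 33.8% of all genes tested). NPC2, which binds cholesterol in lysosomes, was at 49.7, 38.7 and 42.7 CPM with shNC and at 111, 95.9 and 105 CPM with shNUF2 (log2 fold change 1.25, SE 0.07, adjusted p = 2e-14). OSBP, an oxysterol-binding transfer protein, was higher as well (0.28, adjusted p = 8.74e-06), and NR1H3, which encodes LXR alpha, was lower (-0.65, adjusted p = 3.98e-09). The other branches of the isoprenoid pathway had 3 higher and 3 lower of 11 (27.3% each), among them FNTA, a farnesyltransferase subunit (0.69), NUS1, of dolichol synthesis (0.37), and GGPS1, which makes geranylgeranyl diphosphate (-0.63).

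Paralogs of the members did not all follow them. SCD5, a second stearoyl-CoA desaturase, was at 12.9, 10.1 and 10.2 CPM with shNC and at 16.3, 17.3 and 18.8 CPM with shNUF2 (log2 fold change 0.66, SE 0.12, adjusted p = 3.19e-05), opposite in sign to SCD. FADS3, the neighbor of FADS1 and FADS2 in the same family, was at 175 ± 5.69 and 209 ± 8.78 CPM (SD, n = 3; log2 fold change 0.26, adjusted p = 1.8e-05 by edgeR), also opposite in sign to FADS1 and FADS2. ACACB, the carboxylase at mitochondria, was at 35.8 ± 0.336 and 22.1 ± 0.654 CPM (-0.70, adjusted p = 2.86e-08), in the same direction as ACACA. ACAT1, the mitochondrial thiolase, was at 40.6 ± 3.17 and 29 ± 0.851 CPM (-0.49, adjusted p = 5.57e-06), where ACAT2 was not called. IDI2, ACSS1 and ACSS3 did not pass the filter on low counts.

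**Figure D4:**
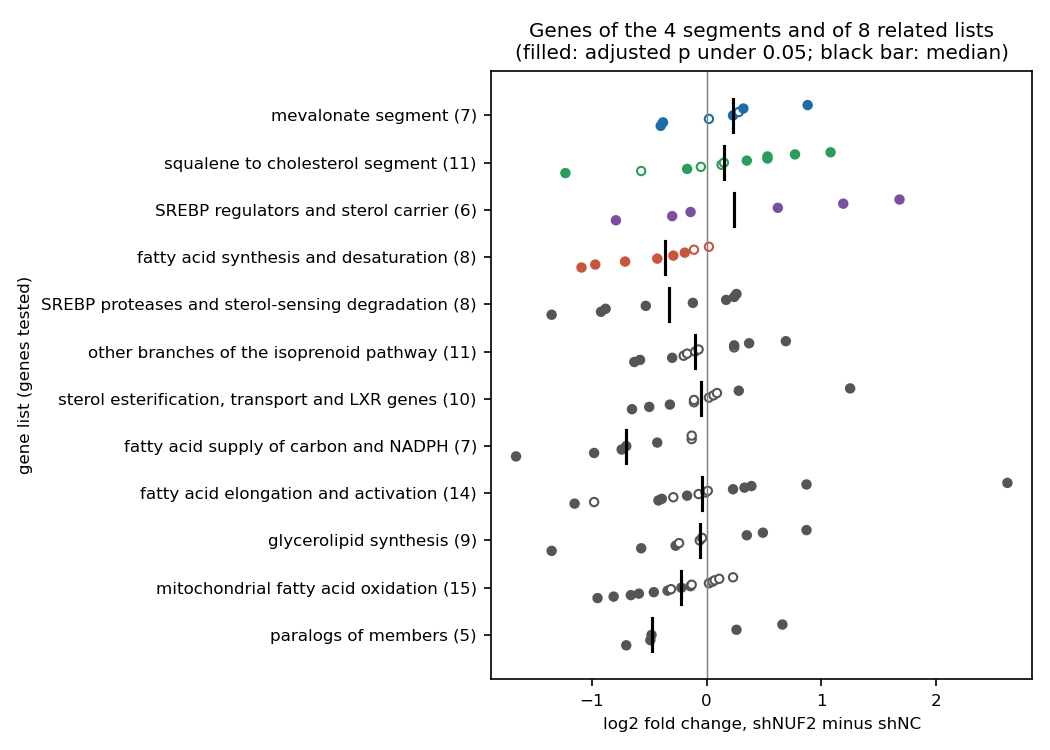
Log2 fold changes (shNUF2 minus shNC, x axis) of the genes of the 4 branches (colored) and of 8 related lists (grey), 1 row per list with the number of genes tested in parentheses, filled where the adjusted p was under 0.05, and a black bar at the median. The fatty acid branch (median -0.36) and the lists for supply of carbon and NADPH (median -0.70) and for mitochondrial fatty acid oxidation (median -0.22) have no filled point above 0.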

How the data were processed

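RNA of OVCAR3 cells was sequenced in 6 stranded, poly(A)-selected libraries. The authors trimmed reads with cutadapt, aligned them with HISAT and counted them per gene with HTSeq (GRCh38.p13, per the submitters' processing notes), with versions, the annotation and the strand setting not given in the sources used here. The deposited table holds a raw read count and an FPKM value per gene and library. The FPKM values deposited by the authors equal count over gene length and library total (largest relative deviation 2.71e-07).

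Counts were fitted in edgeR 4.0.16 (filterByExpr, TMM, quasi-likelihood F test, R 4.3.3) over 12874 of 19973 genes with Benjamini-Hochberg adjustment, and the standard error is the absolute log2 fold change over the square root of F. The procedure was tested on simulated data. CPM values used TMM factors of 0.978 to 1.018. Intervals are 2 standard errors either side of the estimate. With 3 against 3 libraries, an exact two-sided permutation test cannot go below p = 0.10, so it was not used. Alternatives were DESeq2 1.42.0, other scalings and filters, limma 3.58.1 on log2(FPKM + 1) or log2(FPKM + 0.1), TREAT beyond a log2 fold change of 1, a replicate block, and each library left out.

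The members and lists were chosen with earlier results of these data known. Genes named were all members, NUF2, up to 3 called genes with the smallest p per related list, listed paralogs, and marker genes. Overlaps and pseudogenes came from GENCODE 29, in which 20 members overlap a gene on the other strand and 3 a coding gene on their own. Some genes of these pathways are not reported here.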

Additional observations from a re-analysis of the deposited data

How the results depend on the processing

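Over 15 alternative fits, 26 of the 32 members kept their direction and their side of the adjusted p of 0.05 in each, and of 480 values 457 did so. The counts of members called, 11 higher and 13 lower, stayed within 1.5 times in each. The number lower under the study's thresholds, 2, became 1 with limma on log2(FPKM + 1) and 0 with TREAT, which asks whether a change exceeds the threshold itself, and 3 with library totals only and without shNC replicate 1. The number higher, 3, became 2 with limma on log2(FPKM + 1) and with TREAT. The number of squalene to cholesterol enzymes lower, 2, became 1 with DESeq2 and when every library had to reach 1 CPM, and was 1 to 2 on leaving out 1 library, since DHCR7 was then not called (adjusted p 0.0841, 0.0573, and 0.148 at most). The sign of ACAT2 turned with library totals only (-0.02), limma on log2(FPKM + 0.1) (-0.01), limma on log2(FPKM + 1) (-0.01) and no filter (-0.01), and ranged from -0.10 to 0.14 over libraries left out. The sign of ACSS2 turned with library totals only (-0.02), both limma fits (-0.02 and -0.02) and no filter (-0.01), and ranged from -0.05 to 0.05 over libraries left out. HSD17B7 ranged from -0.25 to 0.06 on leaving out libraries. None of these 3 genes was called in any of these fits. MVK gained a call without shNC replicate 3 (adjusted p = 0.022) or shNUF2 replicate 3 (0.0463), and MSMO1 without shNC replicate 2 (0.0293) or shNUF2 replicate 3 (0.0496). Over all genes, the study's thresholds called 1212 higher and 536 lower in the main fit. These counts were 430 and 206 with limma on log2(FPKM + 1), and 756 and 397 when every library had to reach 1 CPM. They were 1603 and 554 with DESeq2 and 1770 and 634 with no filter on low counts. Same-numbered libraries did not deviate together over the genes tested (correlations 0.04, 0.02 and -0.05). Such a value over all genes cannot tell whether those libraries were paired in culture or preparation, which the labels do not state. With the replicate block the members called were 11 higher and 13 lower. With no free base in the sterol element (TCACCCCAC) the member windows with a match stayed at 1 of 39, against 0.362% of all windows. The fewest reads lay behind CYP51A1 (17 to 46) and TM7SF2 (24 to 95).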
